A study of Mus musculus with 2 samples.

Results

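Hedgehog signalling was described through 10 genes, chosen by name as the ligand, receptors, transducers and targets of the pathway: Shh, Ptch1, Hhip, Boc, Cdon, Smo, Sufu, Gli1, Gli2 and Gli3. All 10 were found among the 43346 mouse genes of the deposited gene tables. The tissue was forebrain of B6NCrl mouse embryos at embryonic day 15.5, of mixed sex, with no treatment or mutation named. Replicate 1 was RNA from 78 pooled embryos and replicate 2 from 62, each sequenced as 1 library labelled total RNA longer than 200 nucleotides. The labels also link the manual of a cDNA kit that primes from poly(A) and do not say how these libraries were primed, which bears on the levels of noncoding, intron-retaining and small RNA models below. Expected counts, the reads assigned to features by estimation, summed to 38720511 and 35103430. The 10 genes together held 8702 and 8401 of these reads.

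In Hedgehog signalling a secreted ligand such as Sonic hedgehog binds the membrane protein Patched and so releases Smoothened, which acts at the primary cilium to turn Gli transcription factors from repressors into activators. Without ligand, Sufu holds the Gli proteins back and Gli3 in particular is cut into a repressor. In the embryonic forebrain the pathway patterns the ventral telencephalon and hypothalamus and limits Gli3 repressor there, while dorsal cortex is patterned under Gli3. Ptch1, Gli1 and Hhip are themselves induced by the pathway and are widely used as its readouts.

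Levels are given as TPM, the relative abundance of transcripts at a fixed total, which are corrected for transcript length and can be compared between genes. Values are those of replicate 1 and then replicate 2, or mean ± SD (n = 2). All samples belong to 1 group, so conditions are not compared. An exact sign-flip test on 2 libraries can reach no p below 0.5, so none was run. A difference between genes is called beyond the spread where it exceeds its own SD over the libraries and the values of the genes do not overlap. In whole tissue, fewer cells of a type and less RNA per cell cannot be told apart. Of the telencephalic regulators listed, 5 of 5 reached 1 TPM in both libraries, with Lhx2 highest at 75.6 and 91.9 TPM. As 60.6% of protein-coding genes reached that threshold, the count is only a weak check of the tissue label.

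The pathway was expressed with its transducers and co-receptors in the middle of the range and its ligand and 2 of its induced genes near 1 TPM or below. A level of 1 TPM in both libraries was reached by 7 of the 10 genes. This compares with 60.6% of the 21474 protein-coding genes and 34.4% of all genes. The median of the 10 genes was 8.34 TPM, against 10.9 TPM over the 17322 protein-coding genes with a read in either library and 3.17 TPM over the 24983 genes of any type with a read. The 3 genes below the threshold in at least 1 library were Shh, Gli1 and Hhip.

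**Figure D1:**
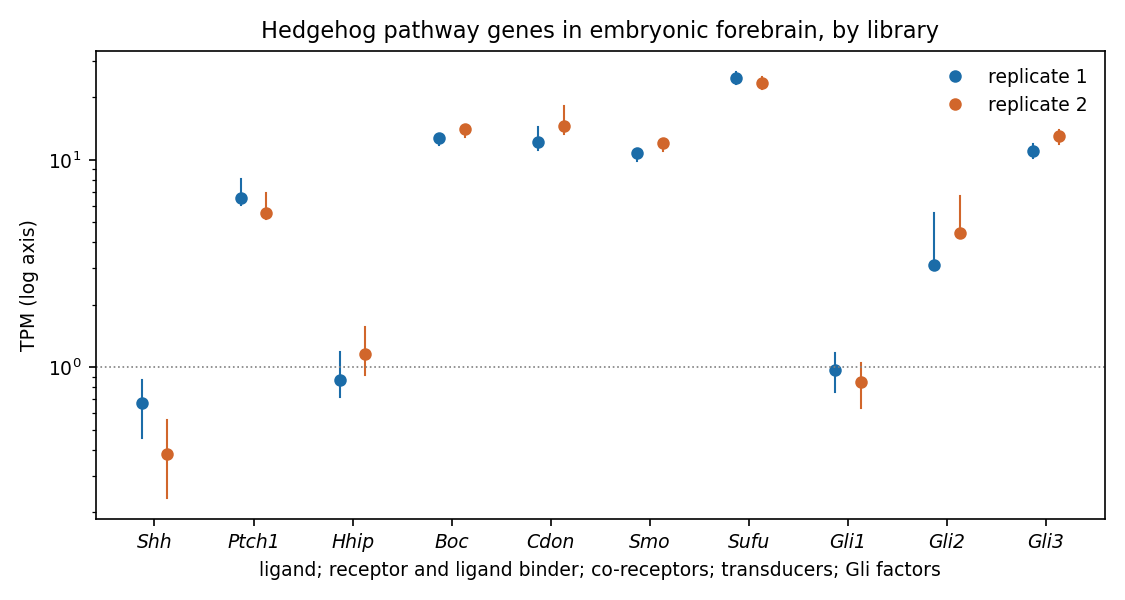
TPM of the 10 genes in each library on a log axis, ordered by role; points are the deposited values, vertical lines the bounds deposited with them, and the dotted line marks 1 TPM. Sufu stands highest at 24.7 and 23.4 TPM, and Shh, Hhip and Gli1 lie around or below the dotted line.

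Sonic hedgehog itself was the lowest of the 10. Shh (ENSMUSG00000002633.3; chromosome 5, 28456815 to 28467256, minus strand, mm10) stood at 0.670 and 0.380 TPM, from 40.6 and 21.4 reads. The bounds deposited with these values ran from 0.457 to 0.869 in replicate 1 and from 0.235 to 0.558 in replicate 2, and so overlapped. On the opposite strand the annotated RNAs 9530036O11Rik (0.120 and 0.0300 TPM) and Gm26894 (0.260 and 0.160) overlap the gene. Of the 50-base words in Shh transcripts, 23.6% also occur in those antisense transcripts, and no source used here says whether counting used strand, so part of the Shh reads cannot be told apart from theirs. Dhh, the ligand of peripheral nerve and testis, was lower than Shh in replicate 1 and higher in replicate 2, at 0.450 and 0.680 TPM. Ihh, the ligand of growth cartilage, was below both in each library, at 0.0700 and 0.180. The ligands summed to 1.19 and 1.24 TPM, of which Shh made 56.3 and 30.6%, so its place among them was not the same in both libraries.

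Genes that modify and release the ligand were present above it. Of the 8 genes in this group, other ligands included, 5 reached 1 TPM in both libraries, with a median of 2.61 TPM. That count is near the share over all protein-coding genes, 60.6%. Disp2, a relative of the release protein Disp1, led at 19.9 and 21.2 TPM, followed by the secreted glycoprotein Scube1 at 8.47 and 9.96. Disp1, which moves the lipid-bearing ligand out of the producing cell, was at 4.84 and 4.55 TPM. Ihh was lowest.

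The Patched receptor was expressed well above its ligand. Ptch1 (ENSMUSG00000021466.7; chromosome 13, 63508328 to 63573598, minus strand) was at 6.57 and 5.57 TPM, above both Shh values in each library. The log2 ratio of Shh over Ptch1 was -3.34 ± 0.32 (10.1-fold lower), beyond the spread between the libraries.

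Hhip, a membrane protein that binds and sequesters the ligand, was low. It stood at 0.870 and 1.16 TPM (ENSMUSG00000064325.3; chromosome 8, 79965851 to 80058006, minus strand), from 91.3 and 101 reads. Against Ptch1 its log2 ratio was -2.48 ± 0.43 (5.56-fold lower), which exceeded the spread. The model used in counting was 4582 bases long, while GENCODE M21 gives the same transcript 9074 bases. The counted models of Shh (2692 against 2847 bases) and Gli1 (3665 against 4057) were also shorter than in M21.

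Gli1, an activator that depends on the pathway for its own expression, was as low as Hhip. Its level was 0.970 and 0.850 TPM from 81 and 65 reads (ENSMUSG00000025407.6; chromosome 10, 127329882 to 127341974, minus strand). Ptch1 exceeded it by log2 2.61 ± 0.04 (6.10-fold). The order of Hhip and Gli1 turned between the libraries. Arhgap9, on the other strand, overlaps Gli1 by 62 bases and was at 0.5 and 0.870 TPM, and 4.51% of the 50-base words of Gli1 transcripts occur in other annotated genes.

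Promoter windows from RefSeq (GRCm38.p6, 250 bases before to 50 after the start) were matched for 7 of the 10 genes: Ptch1, Hhip, Smo, Sufu, Gli2, Gli3 and Cdon. The windows of Ptch1 and Hhip are shown because both genes are known targets of Gli factors, and they were searched for the Gli binding consensus GACCACCCA on both strands. None of the 7 windows held it, and 83 of the 32851 windows in the table (0.253%) did. The capitals mark the closest match, with 2 mismatches, for Hhip, and 1 of 4 equally close stretches, with 3 mismatches on the reverse strand, for Ptch1, and 58.3% of all windows come within 2 mismatches. No match says only that these letters are not in these windows. The Ptch1 window is chr13:63565686-63565985 and the Hhip window is chr8:80057959-80058258, both on the minus strand and printed along the gene, with GC contents of 76.3 and 73.7% against a median of 52.7% over all windows.
Ptch1: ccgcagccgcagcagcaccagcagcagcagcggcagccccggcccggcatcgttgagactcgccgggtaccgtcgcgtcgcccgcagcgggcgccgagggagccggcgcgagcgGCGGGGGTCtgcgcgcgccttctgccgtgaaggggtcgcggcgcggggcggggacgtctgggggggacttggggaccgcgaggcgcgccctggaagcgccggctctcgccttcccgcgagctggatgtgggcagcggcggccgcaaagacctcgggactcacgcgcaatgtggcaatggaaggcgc
Hhip: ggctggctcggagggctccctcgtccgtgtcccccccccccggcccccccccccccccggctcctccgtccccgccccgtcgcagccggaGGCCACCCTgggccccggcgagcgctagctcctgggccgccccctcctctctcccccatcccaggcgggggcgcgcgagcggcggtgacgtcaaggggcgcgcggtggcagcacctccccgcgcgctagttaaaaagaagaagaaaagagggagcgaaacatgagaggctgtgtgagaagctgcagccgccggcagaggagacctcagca

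The Ptch1 window above surrounds a start to which little of the gene's TPM was assigned. The RefSeq start in it coincides with that of Ptch1-201, which held 3.88 and 6.02% of Ptch1 TPM (0.250 and 0.340 TPM). Ptch1-202, which starts 1.20 kb downstream, held 68.4 and 69.8% (4.49 and 3.89 TPM), and it was the leading transcript in both libraries. Ptch1-204, a model subject to nonsense-mediated decay that starts 7.73 kb upstream, held 13.8 and 11.9%, and with Ptch1-205, which starts 7.86 kb upstream, the share was 18.2 and 19.0%. The coding part is 3891 bases in Ptch1-202 and 4302 in Ptch1-201. Hhip differed in this respect, since its RefSeq start lies 2 bases from that of Hhip-201, which held 100 and 88.3% of the gene, the rest being the noncoding Hhip-202 (0 and 0.140 TPM). These shares are estimates from short reads that mostly fall in exons common to the models, and starts were not measured directly. Ptch1-202 also lacks the part of the last exon between 62.066 and 62.486 kb from the first annotated start. Ptch1-201 and Ptch1-204 keep that part, so the Ptch1 shares can reflect it as well as the starts.

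**Figure D2:**
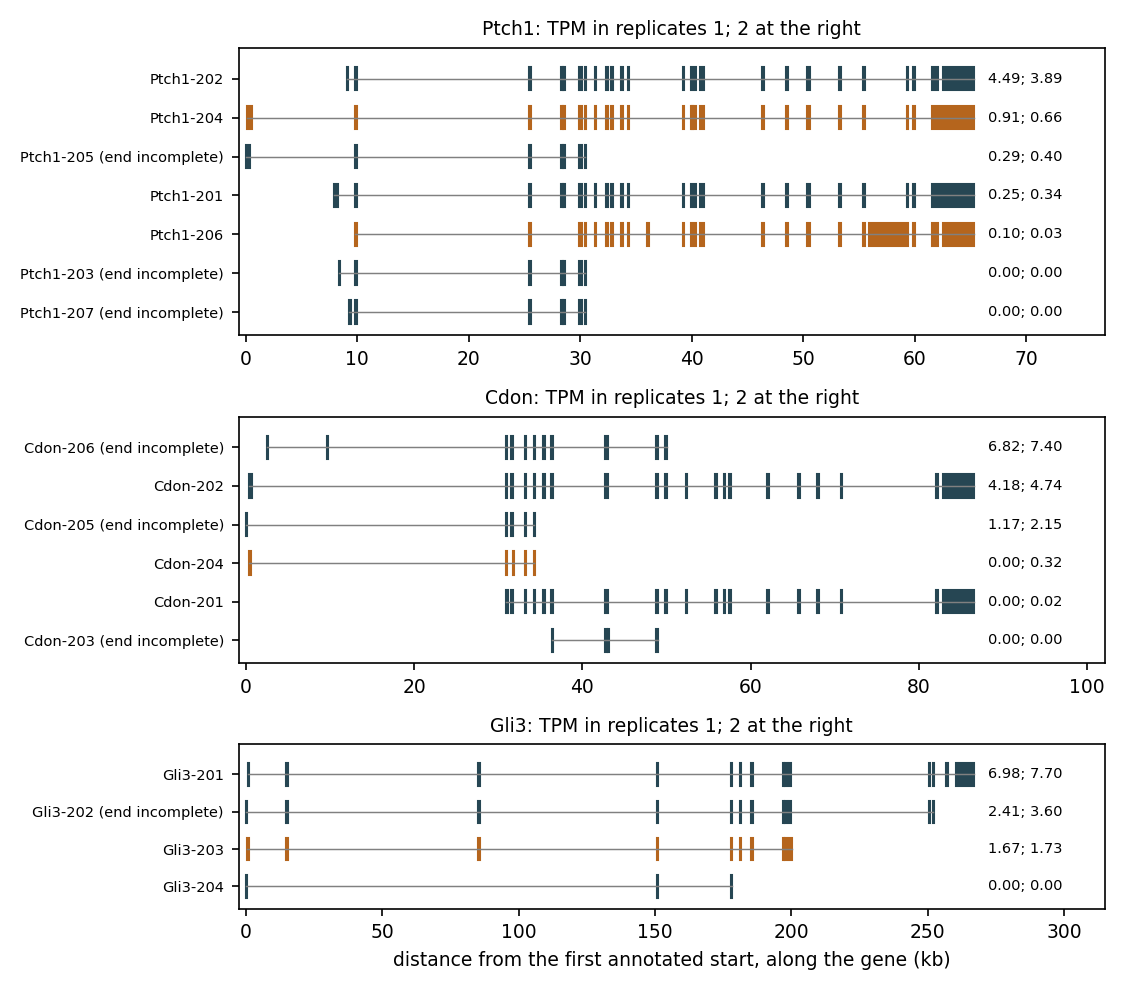
Exon maps of annotated Ptch1, Cdon and Gli3 transcripts (GENCODE M21) by distance from the first annotated start in kb, with TPM in replicates 1 and 2 at the right; blue is coding, brown other types, and short exons are drawn at a minimum width. Ptch1-202 leads its gene at 4.49 and 3.89 TPM, and the leading Cdon transcript, Cdon-206, ends before the 3′ exons.

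Co-receptors that present the ligand to Patched were among the higher genes of the pathway. Boc (ENSMUSG00000022687.7; chromosome 16, 44485049 to 44558897, minus strand) was at 12.8 and 14.1 TPM and Cdon (ENSMUSG00000038119.10; chromosome 9, 35421128 to 35507652, plus strand) at 12.2 and 14.6. Both are immunoglobulin and fibronectin repeat proteins of the cell surface. As gene totals they did not differ beyond the spread, with a log2 ratio of Boc over Cdon of 0.01 ± 0.09. Gas1, a lipid-anchored co-receptor that works beside them, was higher at 31.4 and 37.1 TPM and made 55.7 and 56.4% of the sum of the co-receptors.

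The order of Boc and Cdon depended on which transcripts were counted. The leading Cdon transcript was Cdon-206 at 6.82 and 7.40 TPM, a model of 2222 bases whose 3′ end is marked incomplete in GENCODE. Cdon-202, which runs through all the 3′ exons and has a coding part of 3750 bases, stood at 4.18 and 4.74 TPM. By reads the order was the other way, with 721 and 751 reads assigned to Cdon-202 and 339 and 338 to Cdon-206. Boc was held almost whole by ENSMUST00000023370.6 at 12.8 and 13.7 TPM, a model of 4428 bases that GENCODE M21 does not list and whose coding part is therefore not known here, while Boc-201, the annotated coding model of 4452 bases, was at 0 and 0.380. Near-full-length transcripts were those of at least 80% of the length of the gene's longest one that are coding in M21, or, as for Boc, have no M21 entry. On these, Boc over Cdon was 1.57 ± 0.03 (log2), with Boc still at 12.8 and 14.1 TPM and Cdon at 4.18 and 4.76. The RefSeq start of Cdon is at 35452076, that of Cdon-201, which held 0 and 0.0200 TPM. The snRNA gene Gm25630 lies within Cdon on the same strand at 14.2 and 9.60 TPM. In the M21 models, the longest run that Boc and Cdon coding sequences share was 31 bases, and none of their 50-base words occurred in another gene. ENSMUST00000023370.6, which is not in M21, was not searched.

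Other proteins of the cell surface that tune reception ranged widely. In a group of 5 with Gas1, 4 reached 1 TPM in both libraries, against 60.6% of protein-coding genes, and the median of the group was 3.50 TPM. After Gas1 came the glypican Gpc3 at 27.9 and 27.1 TPM and Gpr161, a ciliary receptor that restrains the pathway, at 3.53 and 3.47. Lrp2, an endocytic receptor for the ligand, was lowest at 0.390 and 0.200 TPM.

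Smoothened and its downstream inhibitor were both above Gli1 and Hhip. Smo, the seven-pass transducer (ENSMUSG00000001761.6; chromosome 6, 29735503 to 29761365, plus strand), was at 10.8 and 12.1 TPM from 932 and 955 reads. Ptch1, which holds Smo inactive, was lower, by log2 -0.91 ± 0.28 for Ptch1 over Smo (1.87-fold). Without length correction this ratio was -0.16, within that spread. The pseudogene Gm13717 lies inside Smo on the same strand, at 1.61 and 1.22 TPM.

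Sufu, the cytoplasmic inhibitor that binds Gli proteins, was the highest of the 10. It stood at 24.7 and 23.4 TPM from 2280 and 1997 reads (ENSMUSG00000025231.12; chromosome 19, 46396896 to 46488804, plus strand). Its mean lay at percentile 65.0 of protein-coding genes with a read, and that of Shh at percentile 19.3. Sufu exceeded Gli3, the highest of its Gli partners, by log2 1.00 ± 0.22 (2.00-fold). Sufu-201 held 81.9 and 83.0% of the gene's TPM and Sufu-202, whose last exon is shorter, 13.9 and 12.1%.

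Among the Gli factors, Gli3 was the most abundant in both libraries, Gli2 came next and Gli1 last. Gli3, the main repressor (ENSMUSG00000021318.11; chromosome 13, 15463235 to 15730026, plus strand), was at 11.1 and 13.0 TPM. Gli2, the main activator downstream of Smo (ENSMUSG00000048402.10; chromosome 1, 118834132 to 119053619, minus strand), was at 3.11 and 4.42 TPM. The values of the Gli genes did not overlap. Gli3 made 73.1 and 71.2% of the summed TPM of the family, Gli2 20.5 and 24.2% and Gli1 6.41 and 4.64%. In log2 terms Gli3 exceeded Gli1 by 3.59 ± 0.29 (12.0-fold), Gli2 exceeded Gli1 by 1.92 ± 0.47 (3.78-fold), and Gli3 exceeded Gli2 by 1.67 ± 0.18 (3.18-fold). Each of the 3 was larger than the spread. On near-full-length coding transcripts they were 2.88 ± 0.22, 1.64 ± 0.34 and 1.24 ± 0.12. RNA levels do not show how much Gli protein was in the activator or the repressor form.

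A stretch of coding sequence within the zinc finger domain shows how alike the Gli genes are and where reads can still tell them apart. It is the most alike 90-base window found without gaps, taken from GENCODE M21 coding sequences and printed in the direction of the transcript. Lower case marks bases that are the same in all 3 genes (70 of 90), and capitals mark positions at which at least 1 gene differs. Within it Gli1 and Gli2 were identical at 83 positions, Gli2 and Gli3 at 73 and Gli1 and Gli3 at 72.
Gli1: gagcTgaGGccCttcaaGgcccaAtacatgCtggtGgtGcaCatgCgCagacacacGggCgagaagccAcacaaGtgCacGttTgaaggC
Gli2: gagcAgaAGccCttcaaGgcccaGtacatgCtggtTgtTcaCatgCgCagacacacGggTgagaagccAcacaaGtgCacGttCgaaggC
Gli3: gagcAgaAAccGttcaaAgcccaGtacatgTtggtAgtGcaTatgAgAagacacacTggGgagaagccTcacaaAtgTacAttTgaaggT

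Over the whole coding sequences, the longest identical run was 25 bases between Gli2 and Gli3, 23 between Gli1 and Gli2 and 14 between Gli1 and Gli3. No 50-base word of Gli2 occurred in another annotated gene. For Gli3 it was 1.31% of words, all shared with Gm6556, an RNA on the other strand that was at 1.19 and 0.720 TPM.

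Part of the Gli3 and Gli2 totals came from models other than the full coding transcript. Gli3-201, with a coding part of 4749 bases, held 63.1 and 59.1% of Gli3 TPM, at 6.98 and 7.70 TPM. Gli3-202, a coding model with an incomplete 3′ end, held 21.8 and 27.6%, and the retained-intron transcript Gli3-203 held 15.1 and 13.3%. By reads the full coding transcript dominated, with 1318 and 1336 reads against 108 and 147 for Gli3-202. Gli2-201 held 87.6 and 76.7% of Gli2, and second place turned between the libraries. Gli2-202, a short noncoding model, held 5.32 and 10.6%, from 1.04 and 2.7 reads. Gli2-204, a model subject to nonsense-mediated decay, held 7.12 and 9.22%, from 5.69 and 9.59 reads. So few reads do not settle the order of these models. In all 10 genes the leading transcript was the same in both libraries. Shh, Smo and Gli1 had a single model in the tables, so their leading transcript could not differ.

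**Figure D3:**
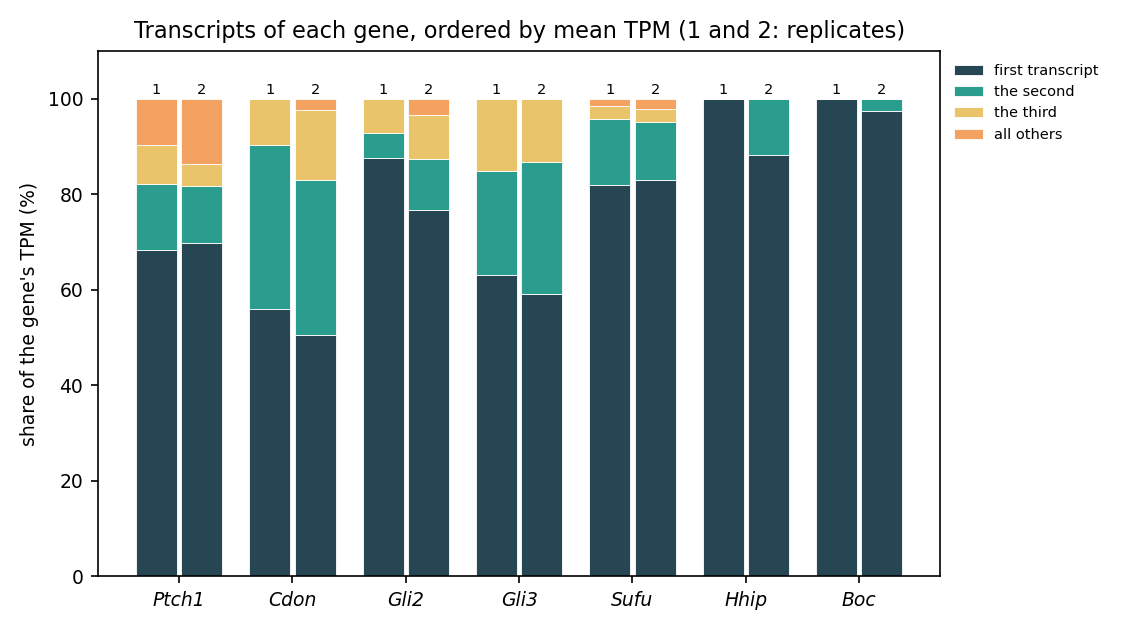
Share of each gene's TPM held by its transcripts, in percent, for the 7 genes with more than 1 model; bars are replicates 1 and 2, and segments follow the order of mean TPM. The first transcript holds 56.0 and 50.6% in Cdon, the lowest of the genes shown, and 100 and 97.3% in Boc.

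Ranked by mean TPM, the order was Sufu, Boc, Cdon, Gli3, Smo, Ptch1, Gli2, Hhip, Gli1 and Shh. Of the 9 neighbouring pairs, 5 differed beyond their spread: Sufu over Boc, Smo over Ptch1, Ptch1 over Gli2, Gli2 over Hhip and Gli1 over Shh. Ptch1 over Gli2 was log2 0.69 ± 0.51, and the deposited bounds of these genes overlapped in replicate 2. Gli1 over Shh was 0.73 ± 0.36, with overlapping bounds in replicate 1. The values of Boc, Cdon, Gli3 and Smo overlapped from each to the next, though Cdon stood above Gli3 (log2 0.15 ± 0.02) and Gli3 above Smo (0.07 ± 0.06) in both libraries. Boc and Cdon changed order between the libraries, and so did Hhip and Gli1. Restricting each gene to near-full-length coding transcripts moved Cdon from the third place to the sixth, at 4.47 ± 0.41 TPM, next to Ptch1 at 4.49 ± 0.36. The median of the 10 genes was then 2.19 on the log2(TPM + 0.1) scale, against 3.08 ± 0.03 for gene totals. Since the restriction used the length of the transcript, it left out Sufu-202 (3.42 and 2.84 TPM). The coding part of Sufu-202, 1455 bases, is no shorter than that of Sufu-201, 1452 bases.

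**Figure D4:**
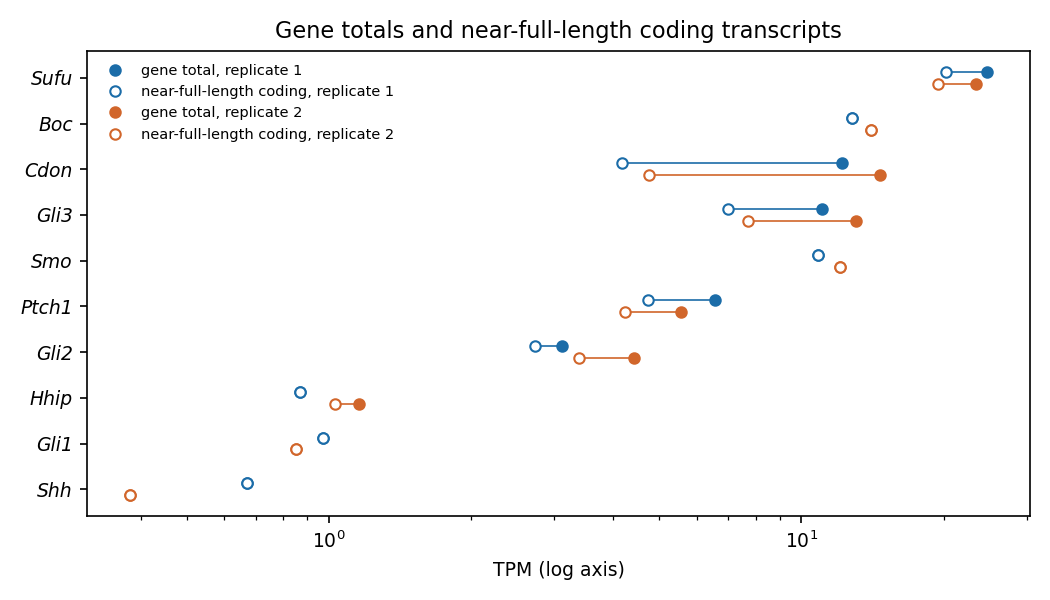
TPM of each gene as the total over all its transcripts (filled) and over near-full-length coding transcripts (open), per library, on a log axis. Cdon shows the widest gap, from 12.2 and 14.6 TPM to 4.18 and 4.76.

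Kinases, adaptors and degradation factors of the pathway were all expressed. Of the 13 genes in that group, 13 reached 1 TPM in both libraries, against 60.6% of protein-coding genes, and their median was 21.9 TPM. Highest were the protein kinase A subunit Prkar1a at 411 and 390 TPM, the casein kinase Csnk1a1 at 232 and 235 and Spop, an adaptor for Gli degradation, at 186 and 181. Kif7, the ciliary kinesin that organises Gli and Sufu, was lowest at 2.77 and 2.84 TPM. Several of these proteins serve many pathways. In the group of ciliary transport genes 12 of 12 reached 1 TPM, with a median of 13.0 TPM, led by the kinesin Kif3a (221 and 204 TPM), Ift52 (31.6 and 33.0) and Ift122 (22.4 and 21.4), with Cep290 lowest at 3.11 and 3.02.

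Other genes that Hedgehog signalling regulates were uneven, and 6 of 10 reached 1 TPM in both libraries. That is near the share over all protein-coding genes, 60.6%. Mycn, a growth regulator of progenitors, was at 138 and 134 TPM and Ccnd1, a cyclin, at 28.1 and 33.4. Nkx2-1, the regulator of medial ganglionic eminence and hypothalamus, was at 9.18 and 6.80 TPM. Foxa2, a gene of the floor plate that responds to high ligand, was lowest at 0.0400 and 0.0200. Mycn and Ccnd1 also answer to other signals, and their levels are no measure of Hedgehog activity alone.

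For comparison, 11 of 11 Notch pathway genes and 12 of 12 BMP pathway genes reached 1 TPM in both libraries. Here it was 7 of 10, near the share over all protein-coding genes, 60.6%. The median was 14.9 TPM for Notch, from Hes5 at 103 and 105 TPM to Maml1 at 3.17 and 3.83. It was 14.5 TPM for BMP, from Id3 at 81.4 and 72.3 to Bmp2 at 1.5 and 1.09. The lists were chosen with earlier results of these data known and differ in their mix of ligands, receptors and targets. The difference was not tested.

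Between the pools, 1 of the 10 genes differed by more than 1.5-fold. This was Shh, higher in replicate 1 by log2 0.81 after scaling of reads, with a 95% exact binomial counting interval from 0.03 to 1.66. Of the 19165 genes with 10 or more summed reads, 11.3% were past that fold. The interval excluded equality for 7 of the 10 genes and for 25.7% of all genes, and it narrows with read number, so these shares are not matched for depth. Gli2, at log2 -0.36, Cdon (-0.20), Gli3 (-0.19), Smo (-0.18) and Boc (-0.16) were higher in replicate 2, and Ptch1 (0.19) in replicate 1. The intervals of Sufu, Gli1 and Hhip included equality. With scaling by spike-ins, which shifted the median of all genes by -0.20, Shh was at 0.61, while Ptch1 (-0.01), Gli1 (-0.02) and Sufu (-0.15) changed sign.

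Genes that mark some forebrain territories also differed between the pools. Over all genes for which a pool ratio was taken, the median log2 ratio was -0.0002, so they were split about evenly between the replicates. By scaled reads and by TPM, all 6 choroid plexus genes were higher in replicate 1, with a summed level of 838 and 376 TPM and Ttr at 761 and 331. The interval of Kl (-0.69 to 0.95), the lowest of them, included equality. Diencephalic genes went both ways, with 5 of 9 higher in replicate 1 and sums of 109 and 136 TPM. Nkx2-2, a gene of tissue close to the ligand source, was higher in replicate 1 by log2 1.61, and the hypothalamic gene Sim1 stood at 0.780 and 0.370, while the thalamic genes Tcf7l2 (78.0 and 107) and Lhx9 (16.7 and 20.3) were higher in replicate 2. The lowest, Sim2, was at 0.0200 and 0.0300. Telencephalic genes summed to 214 and 252 TPM, and 5 of 5 were higher in replicate 2 by scaled reads and by TPM. The interval of Otx1 (-0.30 to 0.05) included equality. Ganglionic eminence genes were nearly level, with a median log2 ratio of 0.04 and 0 of 6 past 1.5-fold. By scaled reads, 4 of them were higher in replicate 1, Nkx2-1 most at log2 0.42, and 2 in replicate 2. The part of these differences in the Shh ratio was not tested.

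**Figure D5:**
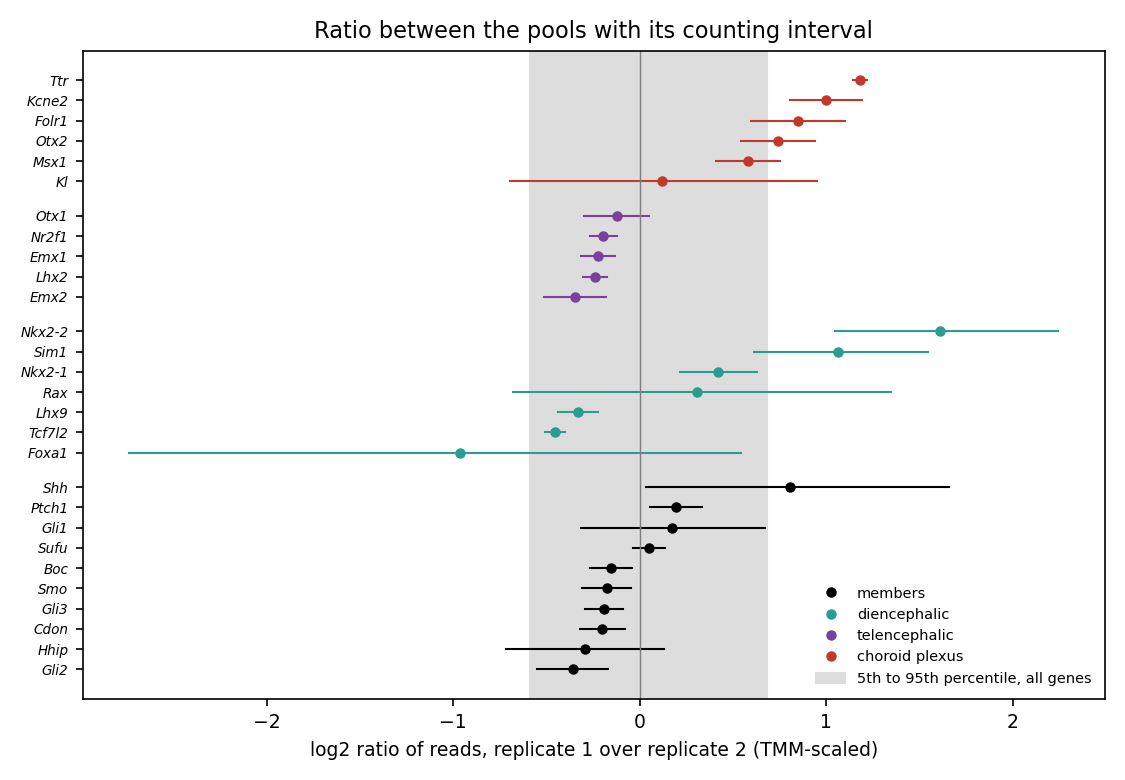
Log2 ratio of TMM-scaled reads, replicate 1 over replicate 2, with its 95% counting interval, for genes with 10 or more summed reads. Shown are the 10 genes of the pathway and the diencephalic, telencephalic and choroid plexus markers. The band spans the 5th to 95th percentile of all genes (-0.59 to 0.68). Shh lies to the right at 0.81, above the band, and the other genes of the pathway lie inside it.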

How the data were processed

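Total RNA of 2 pools of forebrain was measured, with 1 gene and 1 transcript table per library. Per the deposited notes, values derive from transcriptome alignments to mm10 with GENCODE M4. Aligner, quantifier and strand setting: not given in the sources used here. Estimated reads per feature, which need not be whole, form the expected count column deposited by the authors. The TPM values deposited by the authors are scaled by effective length (length minus 99) over all features. They come as maximum-likelihood estimates, used here, and as posterior means. Transcript shares within a gene are deposited as percent. The level of the TPM bounds is not stated.

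Symbols were joined by identifier for 98.0% of genes; 26248 transfer RNA entries and 97 spike-in entries were left out. Gene positions and transcript names were taken from GENCODE M21, on the same assembly, which has 38 of the 40 transcripts, 30 at the same length. The members and lists were chosen with earlier results of these data known. All members were named, with the 3 highest and the lowest gene of each further pathway list, the highest and lowest of the Notch and BMP lists, the 2 highest transcripts of each member and overlapping genes at 1 TPM or more. Other genes and transcripts (Dhh, low overlapping genes, Ptch1-201, Ptch1-205, Cdon-201, Gli2-204, Gli3-203 and the territory markers) were chosen after their values were seen. Some genes are not reported here. Log2 ratios between genes used TPM + 0.1. Pool ratios used counts rounded to whole numbers plus 0.5, TMM factors from edgeR 4.0.16 (R 4.3.3), genes with 10 or more summed reads, and exact binomial intervals, which cover counting error only. Ratios were tested on simulated data. Alternatives were DESeq2 1.42.0 size factors, spike-in scaling, no count filter, other pseudocounts and thresholds, posterior means, CPM and single libraries, and, chosen after seeing the data, transcripts of at least 80% of the longest, coding or with no M21 entry (called near-full-length coding). Other tools were Python 3.11.15, pandas 2.3.3, numpy 2.4.6, scipy 1.17.1 and matplotlib 3.10.9.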

Additional observations from a re-analysis of the deposited data

How the results depend on the processing

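Of 47 values recomputed on both libraries, 18 stayed within the spread between libraries, or within 1.5 times for counts; the 22 values from 1 library are no check of a ratio's size, since with 2 libraries each lies within 1 SD of their mean. Directions of all ratios between genes other than Boc over Cdon were kept. Between the pools, the ratios of Ptch1, Gli1 and Sufu changed sign with spike-in scaling. Boc over Cdon was -0.11 with posterior means, ranged from -0.059 to 0.070 in single libraries, and was 0.25 with CPM and 1.57 on near-full-length coding transcripts. With a pseudocount of 1, log2 ratios were 1.31 (Gli2 over Gli1), 2.77 (Gli3 over Gli1), 1.46 (Gli3 over Gli2), 1.89 (Ptch1 over Gli1), -1.81 (Hhip over Ptch1) and -2.22 (Shh over Ptch1). With CPM, which is not corrected for length, they were 2.60 (Gli2 over Gli1), 4.36 (Gli3 over Gli1), -0.16 (Ptch1 over Smo), 3.48 (Ptch1 over Gli1), -3.09 (Hhip over Ptch1), -4.67 (Shh over Ptch1) and 0.45 (Sufu over Gli3). Posterior means gave 1.27 (Gli3 over Gli2) and 2.71 (Ptch1 over Gli1). Near-full-length coding transcripts gave 2.88 (Gli3 over Gli1), 1.24 (Gli3 over Gli2), -1.33 (Ptch1 over Smo), 2.18 (Ptch1 over Gli1), -2.91 (Shh over Ptch1) and 1.42 (Sufu over Gli3). The member median was 3.23 with a pseudocount of 1, 3.11 with posterior means, 4.64 with CPM and 2.19 on near-full-length coding transcripts. At the smaller fold tried, 2 members differed between the pools (Shh and Gli2). Except for changes by construction (pseudocount, length correction, fewer transcripts), the cause was not tested. Shh, Gli1 and Hhip rest on 21.4 to 101 reads, which limits their precision. No paired analysis was possible because there is 1 group.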

Other observations

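The level of Gli2 depended on the estimator more than that of the other 9 genes. Its maximum-likelihood TPM was 3.11 and 4.42, while the posterior mean TPM was 4.36 and 5.48. The value of replicate 1 lay below the lower bound deposited with it, 3.26. Gli2 has 9 annotated transcripts, of which Gli2-201 held 98.4% of the gene's reads in replicate 1, and 5 models with 0 reads in both libraries still had posterior means above 0. The cause was not tested. Sufu, with 6 models, had posterior means of 24.9 and 23.5 TPM against 24.7 and 23.4.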
